A study of Danio rerio with 4 samples.

Results

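The wild-type heart cone of the zebrafish embryo was described from the 2 wild-type arrays of a set of 4 single-colour Agilent arrays. The wild-type embryos carried no transgene named in the labels. The other 2 arrays held hearts of embryos with Tg(hsp70l:bmp2b)fr13, in which the heat shock promoter hsp70l drives the ligand bmp2b, and no value of theirs is reported here. Both groups were heat-shocked at 18 hours post fertilization (hpf) for 30 min at 37 °C, and hearts were taken by hand at 21 to 23 hpf and pooled. The baseline is therefore that of pooled, hand-dissected hearts of embryos that had received a heat shock, and the number of hearts in a pool is not given in the sources used here. For each array 200 ng of total RNA was labelled with Cy3 after 1 amplification, and its integrity number (RIN) was above 8. The arrays came from slides 1 and 2.

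A gene was represented by its brightest probe and was called present where the raw signal of that probe lay above 2 times the 5th percentile of all spots on both arrays. That limit was a raw signal of 33 on array 1 and 32 on array 2. Of 15528 genes named on the array, 11299 were present, or 72.8%. That share is the one to set beside the counts of list members present given below. It is not matched for the number of probes of a gene. Genes with several probes were present in 84.3% of cases, and those with 1 probe in 65.3%. Over all 43603 probes, named or not, 55.7% were present. Levels below are mean log2 raw signals of the 2 arrays unless both values are given. A probe's brightness depends on the probe as well as on its transcript, so the ranks order probe signals and not amounts of RNA.

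At this stage the zebrafish heart is built from cells of the left and right lateral plate mesoderm that have met at the midline. The myocardium forms a cone that surrounds endocardial cells and is about to elongate into a tube, while Nodal and Bmp signals set which way it turns. Contractile proteins are being made and assembled, and the matrix between the myocardium and the endocardium, the cardiac jelly, is beginning to form.

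The 2 arrays were first compared with each other. Of 50 probes with 5 spots each, 26 had a raw signal above 200, and for these the root mean square difference between the arrays was 0.0784 on the log2 scale. If spots varied independently, their spread alone would give 0.129. On these probes, which have no gene name, the arrays differed by less than that. The spread was taken within each array, so it need not equal the noise of a difference between arrays. Over the present genes 152 were at least 1.5-fold apart, 148 of them in the same direction, so the arrays were not identical. The labels do not say whether they hold separate pools. The arrays were counted as 1 sample, and the values of both are given in place of an SD. No intensity was tested between groups, and in RNA of a whole heart fewer cells of a type and less RNA per cell cannot be told apart.

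Signals of named genes ran from 3.78 to 18.69. Their median was 7.71, the 75th percentile 10.93, the 95th percentile 14.07 and the 99th percentile 16.41. Among present genes the median was 9.48. The 10 brightest genes held 4.81% of the signal summed over all named genes, the brightest 100 held 30.8% and the brightest 1000 held 74.0%. Most of the summed signal therefore came from a small part of the genes, and most of the genes lay in the long lower range.

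**Figure D1:**
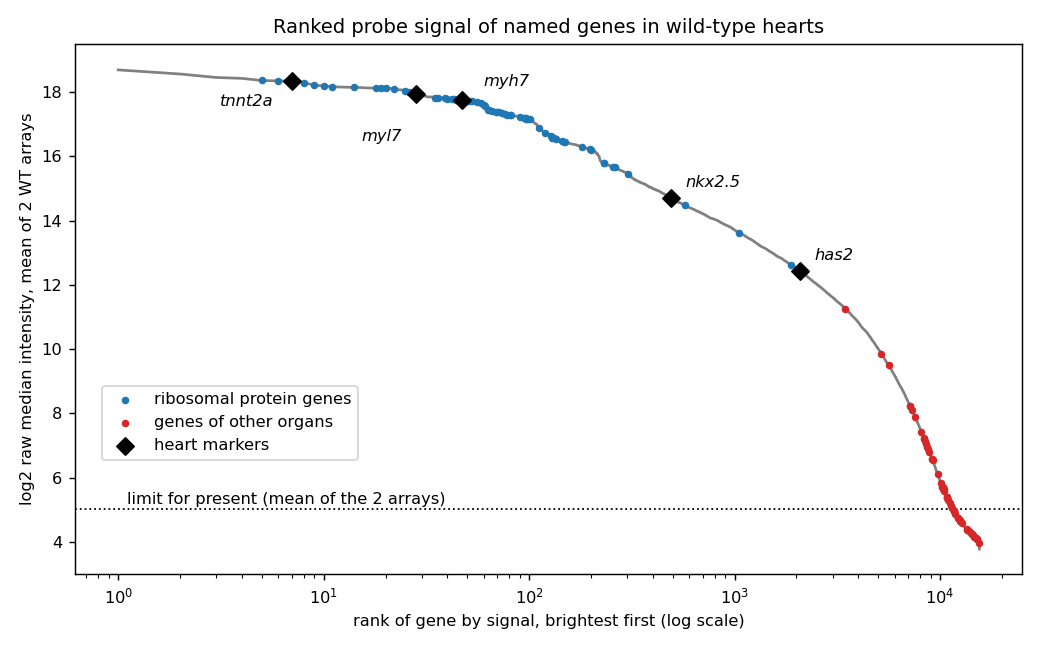
Mean log2 raw signal of the 15528 named genes on the wild-type arrays (vertical axis) against rank (horizontal axis, log scale), with the marker genes and the limit for present drawn in. The curve is shallow over the first 100 genes and the markers tnnt2a, myl7 and myh7 stand on that shoulder, with nkx2.5 at rank 492 and has2 at rank 2070.

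The 5 marker genes of the heart were all present. Cardiac troponin T, tnnt2a, which ties the troponin complex to the thin filament, had 18.49 on array 1 and 18.21 on array 2. Its raw signal was 367585 and 302907. The regulatory myosin light chain of the embryonic heart, myl7, had 18.09 and 17.80, and the ventricular myosin heavy chain myh7 had 17.78 and 17.72. These 3 structural genes lay among the 100 brightest. The homeobox factor nkx2.5, an early marker of heart progenitors, had 14.80 and 14.63, in the brightest 10% of genes. The hyaluronan synthase has2, which makes the polymer that swells the cardiac jelly, had 12.62 and 12.26. All 5 were brighter on array 1, by between 0.06 and 0.37 on the log2 scale, while the median difference over all present genes was 0.02. In the processed table of the authors the same 5 differences were 0.19 for tnnt2a, 0.07 for myl7, 0.01 for myh7, 0.15 for nkx2.5 and 0.31 for has2.

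The brightest gene of the array was actc1a, a cardiac alpha actin, with 18.73 on array 1 and 18.65 on array 2. It was followed by hsp90ab1, a constitutive chaperone, the elongation factor eef2b and the actin-binding peptide gene tmsb4x. Their mean signals were 18.57, 18.46 and 18.43. Of the 40 brightest genes, 18 were in the ribosomal protein list and 5 in the sarcomere lists. Another 4 were in the list of other translation genes and 2 in the heat shock list. The 5 sarcomere genes were actc1a, tnnt2a, tpm4a, cmlc1 and myl7, and the calcium pump atp2a2a stood at rank 34. The remaining 10 belonged to none of the lists used here. Among them was rpsa at rank 12, which also codes for a ribosomal protein but was missed when that list was drawn up by symbol. Among the 100 brightest genes, 49 were in the ribosomal protein list and 7 in those of the sarcomere.

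The order among the brightest genes differed between the raw and the processed table of the authors. In the raw table no spot of array 1 lay between 60179 and 67005, and none of array 2 lay between 61603.5 and 67409. Further such gaps followed at higher signals, for example from 124680 to 137903 on array 1. In the authors' processed table of the same spots, the first range held 46 spots on array 1 and 32 on array 2. The processed table and the raw table shared 34 of their 40 brightest genes and 6 of their 10 brightest, and it put the ribosomal protein gene rps2 first and actc1a at rank 3. A total of 213 genes lay above 60000 on both arrays. Markers kept similar places in the processed table, tnnt2a at rank 12, myl7 at rank 29, myh7 at rank 38, nkx2.5 at rank 514 and has2 at rank 2088.

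Contractile genes of the thick filament, thin filament and Z-disc lists held 13 of the 500 brightest places. Of the thick filament list, which holds myosin heavy and light chains and the proteins bound to them, 9 of 10 genes on the array were present and 8 lay in the brightest 10% of named genes (1552 genes), with a list median of 14.11. The essential light chain cmlc1 had 18.15 on array 1 and 18.08 on array 2. Cardiac myosin binding protein mybpc3 had 14.61 and 14.55. The giant sarcomere spring titin was seen through both of its genes, with 14.51 and 14.44 for ttn.1 and 13.78 and 13.72 for ttn.2. The atrial heavy chain myh6 had 13.59 and 13.62, so genes of atrial and of ventricular myosin were both clearly above the limit. The light chain gene myl4 was not present, at 4.17 on both arrays.

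The thin filament list was split. A set of 7 genes of 17 lay in the brightest 10%, led by actc1a, tnnt2a and the tropomyosin gene tpm4a, which had 18.18 on array 1 and 18.13 on array 2. Troponin I came from tnni1b, with 17.29 and 17.23, and troponin C from tnnc1a, with 15.66 and 15.36. Each of these troponin genes had a sister copy that was present further down the ranking. These copies gave 10.13 and 10.07 for tnnc1b, 8.91 and 9.03 for tnni1c, and 7.89 and 7.86 for tnnt2b. A tropomyosin gene well known from muscle, tpm1, had only 7.43 and 7.38. In all, 16 of 17 thin filament genes were present, with a median of 10.10, and nebl was not.

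Genes of the Z-disc, where thin filaments of neighbouring sarcomeres are anchored, were present in 18 of 21 cases, with a median of 12.66. The brightest was unc45b, a chaperone that folds myosin, with 16.77 on array 1 and 16.79 on array 2. The intermediate filament gene desma had 16.31 and 16.37, and smyd1b, a methyltransferase needed for myofibril assembly, had 14.45 and 14.52. Alpha-actinin, the cross-linker of the disc, was seen as actn2b, with 13.93 and 13.77. Chaperones of myofibril assembly and structural Z-disc genes were thus detected together. The titin cap gene tcap and the second copy smyd1a were not present. The second copy desmb was not called present either, but its raw signals of 33 and 40 put it exactly at the limit on array 1.

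**Figure D2:**
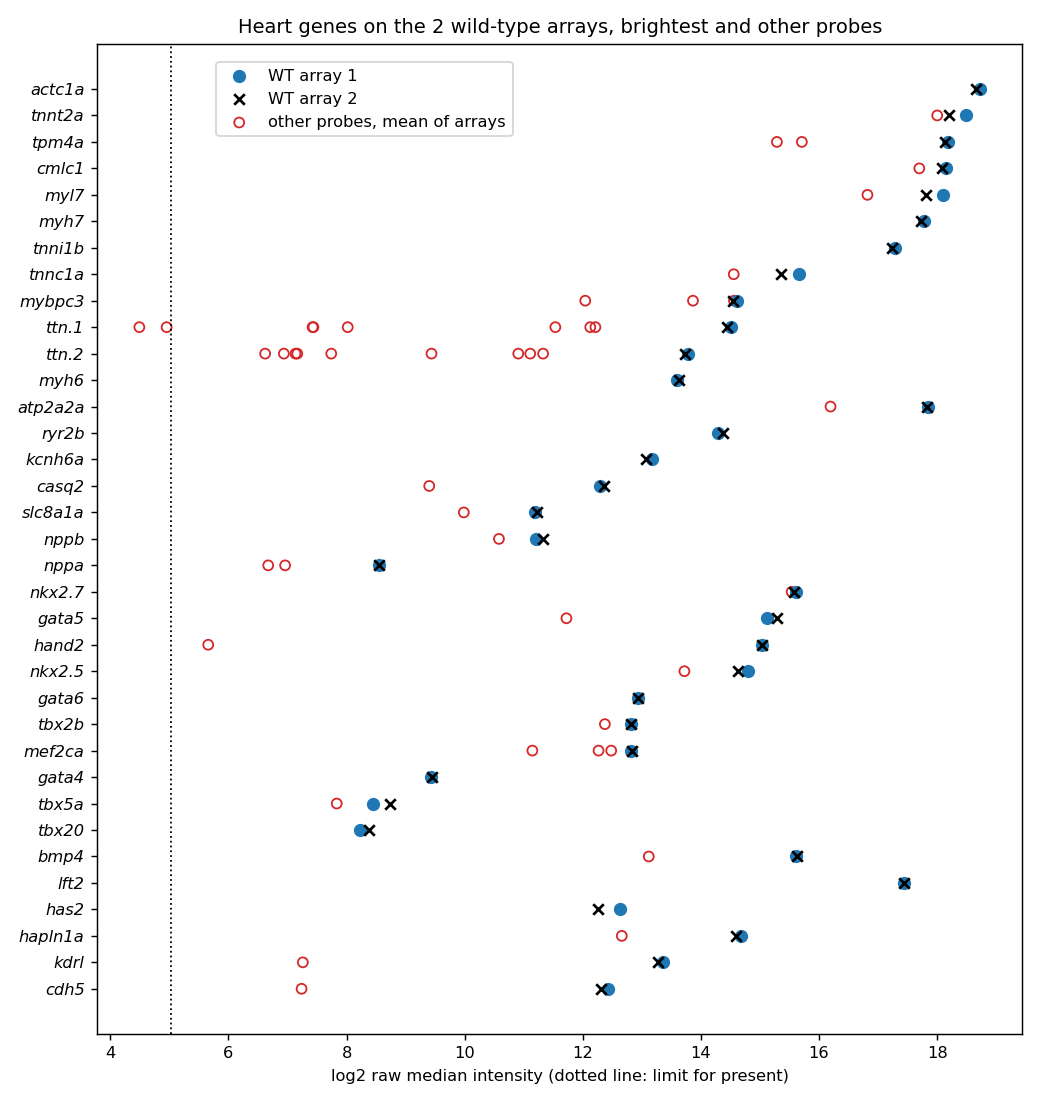
Log2 raw signal of heart genes on each of the wild-type arrays, with the limit for present as a line. The points of the arrays nearly coincide for most genes, and actc1a, tnnt2a, tpm4a, cmlc1 and myl7 lie near the top of the scale, while nppa, with 8.55 on both arrays, lies closer to the limit.

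Genes of calcium handling and excitation were present for 18 of 22, with a median of 11.26. The sarcoplasmic calcium pump atp2a2a had 17.85 on array 1 and 17.84 on array 2. The calcium release channel ryr2b had 14.30 and 14.38, its partner triadin, trdn, 13.94 and 13.96, and the calcium buffer casq2 12.29 and 12.36. The potassium channel kcnh6a, which repolarizes the zebrafish heart, had 13.18 and 13.07. The store and release side of the calcium cycle was therefore well above the limit on both arrays. Channels of the cell surface were also read. The L-type calcium channel gene cacna1c had 6.36 and 6.63, its subunit cacnb2a 8.00 and 7.67, and the sodium-calcium exchanger slc8a1a 11.20 and 11.23. The sodium channel gene scn5lab and slc8a1b were not present. Gap junction genes were present as gjd6 (13.34 and 13.37), gjc4b (13.22 and 13.14) and gja1b (11.16 and 11.15).

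Natriuretic peptides and energy-buffer genes of mature muscle had 12 of 16 genes present, or 75% beside 72.8% of all named genes. Their median was 9.15, with 1 gene in the brightest 10%. That gene was fabp3, a fatty acid carrier of heart muscle, with 14.58 and 14.63. The natriuretic peptide gene nppa, a marker of chamber myocardium, had 8.55 on both arrays, and nppb had 11.21 and 11.32. The peptide genes nppal and nppc were not present. Creatine kinase ckma had 11.89 and 12.03, whereas myoglobin, mb, lay near the limit with 5.64 and 5.58.

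Of 51 cardiac transcription factors and their cofactors, 49 were present, or 96.1%, with a median of 10.93, and 11 lay in the brightest 10%. The LIM protein gene fhl2a had 17.77 on array 1 and 17.78 on array 2, which placed it among the 100 brightest. The core factors of the heart field followed with 15.61 and 15.58 for the homeobox gene nkx2.7, 15.11 and 15.28 for gata5, and 15.03 on both arrays for hand2. The hand2 gene has a second probe on the array that gave only 5.66. These 3 genes lay above the list median, as did nkx2.5.

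Several families of factors were covered by more than 1 gene. Among the GATA factors, gata6 had 12.94 on both arrays and gata4 had 9.42 and 9.45. T-box genes gave 12.82 on both arrays for tbx2b, a repressor of chamber genes, 8.45 and 8.73 for tbx5a, and 8.22 and 8.38 for tbx20. The myocyte factor mef2ca, which switches on contractile genes, had 12.82 and 12.83, and mef2cb had 7.68 and 7.64. The factor isl1a, a marker of late-differentiating progenitors, had 10.53 and 10.52. The factor hey2, which limits growth of the early heart, had 12.93 and 12.96. The orphan receptor genes nr2f1a, a factor of atrial cells, and nr2f2 had 13.96 and 14.08, and 12.62 and 12.52. Of these, gata4, tbx5a, tbx20, mef2cb and isl1a lay below the list median. All lay above the limit, and only heyl and irx4b of this list did not.

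The Bmp pathway was present almost throughout, with 35 of 38 genes and a median of 9.98. Among the ligands, bmp4, which is expressed in the zebrafish heart, had 15.62 and 15.64, in the brightest 10%. Other ligands gave 10.83 and 10.88 for bmp2a, 10.14 and 10.02 for bmp5, and 8.36 and 8.58 for bmp2b, the gene carried by the transgene of the other group. The ligand genes bmp10, bmp10l and bmp8a were not present. At least 1 ligand was therefore strong and several more were measurable.

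Receptors and signal carriers were also present. Of the type I receptors, bmpr1aa had 12.70 and 12.69 and acvr1l had 11.48 and 11.36. Their dimmer probes gave means of 6.43 and 6.07 for bmpr1aa and 8.53 for acvr1l. The type II receptors bmpr2a, with 7.12 and 7.10, and bmpr2b, with 6.17 and 6.21, lay in the lower range. The transducers smad1 and smad5 had 13.74 and 13.70, and 12.27 and 12.43. Among the inhibitors, the pseudoreceptor bambia had 15.03 and 15.06, and the secreted antagonist nog1 had 11.95 and 12.11, while chordin, chrd, had 7.04 and 7.12.

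Genes known as direct targets of Bmp signalling had 18 of 19 present and a median of 11.69. Inhibitor-of-differentiation genes gave the brightest values, 16.14 and 15.91 for id1, 15.85 and 15.80 for id2a, and 15.62 and 15.52 for id3. The feedback inhibitors smad6b and smad7 had 12.80 and 12.97, and 11.79 and 11.60. The homeobox genes of the same list ranged widely, with 12.05 and 11.97 for vox, 10.45 on both arrays for msx3, 9.59 and 9.66 for msx1b and 5.97 and 5.81 for msx2b, and vent was not present. Many of these genes answer other signals too.

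The Nodal and left-right list had 16 of 21 genes present, a share of 76.2% beside 72.8% of all named genes. Its median was 7.79, close to that of all genes. Its top was far above its middle. The Nodal inhibitor lft2, which marks the left heart field, had 17.45 on array 1 and 17.44 on array 2, among the 100 brightest genes. The co-receptor tdgf1 had 15.53 and 15.55, and the inhibitor lft1 12.60 and 12.54. The ligand spaw, which carries the left-sided signal in the lateral plate, was not present, at 4.58 and 4.49. The ligand ndr2 had 9.43 and 9.46, and ndr1 was not present. Inhibitors that Nodal switches on were thus bright on the same arrays on which spaw lay below the limit.

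Wnt genes had 37 of 46 present and a median of 8.00. The beta-catenin genes ctnnb2 and ctnnb1, which code for a protein of both signalling and cell adhesion, had 16.33 and 16.20, and 16.18 and 16.22. The planar polarity gene vangl2 had 15.74 and 15.39, and the ligand wnt11 had 14.08 and 13.95. Of the receptors, fzd7a had 14.07 and 13.98 and fzd2 had 13.50 and 13.41. Ligands such as wnt1, wnt3a and wnt8b were not present. The Fgf list had 26 of 30 present and a median of 8.58, led by genes that answer the signal, dusp6 (15.55 and 15.48), etv4 (14.26 and 14.29) and etv5b (13.72 and 13.65). The ligand fgf8a had 11.42 on both arrays and the receptor fgfr4 had 13.44 and 13.43.

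The Notch list had 24 of 29 present and a median of 9.55. The glycosyltransferase lfng, which tunes Notch to its ligands, had 14.69 and 14.68, the ligand dld 14.07 and 14.15, and the hairy-related gene her9 13.82 and 13.86. The receptors notch1a and notch1b had 9.36 and 9.44, and 7.22 and 7.36. The somite clock genes her1 and her7 were not called present, but her7, with raw signals of 34.5 and 32, lay exactly at the limit on array 2. The retinoic acid list had 22 of 26 present and a median of 7.81. Its brightest members were dhrs3b (14.31 and 14.34) and rdh10b (13.51 and 13.40), which interconvert retinol and retinal, while the synthetic enzyme aldh1a2 had 8.37 and 8.24. In the ligand, receptor and target lists together, target and feedback genes held several of the top places.

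All 36 genes of the fusion and migration list were present, with a median of 11.61, and 11 lay in the brightest 10%. The surface sialomucin gene podxl had 16.27 and 16.42. The adhesion gene cdh2, whose protein holds heart muscle cells together, had 14.87 and 14.83, and the junction gene jupa 14.80 and 14.81. The apelin receptor gene aplnrb, needed for heart progenitors to migrate, had 13.79 and 13.69. Fibronectin, which paves the way to the midline, was seen as fn1a with 11.80 and 11.83. The sphingosine phosphate transporter gene spns2 had 9.10 and 9.20, and its receptor gene s1pr2 had 5.48 and 5.64. The lowest of the list was itgb1a, with 5.19 and 5.17, just above the limit.

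Of 42 genes of the cardiac jelly and basement membrane, 38 were present, with a median of 10.63. The collagen chaperone serpinh1b had 15.24 and 15.30, and the laminin gene lama5 15.04 and 14.91. The basement membrane collagen gene col18a1a had a mean of 15.09. The hyaluronan linker gene hapln1a had 14.68 and 14.59, and the proteoglycan vcanb, which binds hyaluronan, had 11.99 and 12.10. The enzyme ugdh, which supplies a building block of hyaluronan, had 11.45 and 11.44. Of the other hyaluronan synthases, has1 was near the limit at 5.34 and 5.32 and has3 was not present. Genes for the sugar precursor, the polymer, its linker and its proteoglycan were thus all present.

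Endocardial and endothelial genes were present for 36 of 37, or 97.3%, with a median of 12.05 and 13 in the brightest 10%. The vascular lectin gene clec14a had 16.25 and 16.29, the receptor tek 15.05 and 15.12, and the junction gene cldn5b 15.14 and 15.19. Transcription factors of the lineage followed with 14.83 and 14.88 for fli1, 14.30 and 14.44 for erg, 13.47 and 13.41 for tal1, and 13.24 and 13.23 for etsrp. The vascular receptor kdrl had 13.36 and 13.27 and the cadherin cdh5 12.43 and 12.31. Surface genes and lineage factors of the endothelium were thus both well above the limit. The gene nfatc1, a marker of endocardium in later hearts, had only 6.22 and 6.29, and the lymphatic gene lyve1a was not present.

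Blood genes had 18 of 24 present, a share of 75% beside 72.8% of all named genes, and a median of 6.98, with none in the brightest 10%. Genes of the myeloid lineage led the list, cebpa (12.79 and 12.92) and lcp1 (12.43 and 12.30). Embryonic globins followed with 11.99 and 12.01 for hbae3 and 11.58 and 11.61 for hbbe3. A second probe of cebpa gave only 7.40. The red cell genes alas2, for heme synthesis, and slc4a1a, an anion exchanger, had 6.77 and 6.74, and 6.46 and 6.52. The red cell regulators gata1a and klf1, the globin gene hbae5 and the platelet gene itga2b were not present. The list therefore held genes of the myeloid and red lineages on both sides of the median of all genes. The list for pericardium and epicardium had 15 of 18 present and a median of 9.48. It overlaps with the heart field through bmp4, hand2 and gata6, its 3 brightest members, and of the epicardial genes wt1b had 9.20 and 9.25, tcf21 had 6.39 and 6.19, and wt1a and tbx18 were not present.

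Hand dissection can carry along neighbouring tissue, so lists of other cell types were read in the same way. All 34 neural genes were present, with a median of 9.10 and a lowest value of 7.09. The brightest were tuba1a (14.07 and 14.00), a tubulin gene, and egr2b (12.83 and 12.80), a hindbrain factor, whose second probe gave 4.42, below the limit. Neural progenitor factors followed with 11.75 and 11.68 for sox19a and 11.32 and 11.28 for sox2, and the neuronal genes elavl4 and elavl3 had 11.11 and 11.07, and 10.68 and 10.72. The epidermal list had 23 of 29 present, a share of 79.3% beside 72.8% of all named genes, and a median of 8.70. The keratin krt8 had 17.36 and 17.38, and icn, which codes for a calcium-binding protein of skin, had a mean of 15.01, whereas tp63, the master factor of epidermis, had 7.52 and 7.55. The epithelial gene epcam had 8.01 and 7.73, and foxi3b, grhl1, evpla, ppl, cyt1 and krt15 were not present. The neural list was thus detected in full and the epidermal list in part. In the brightest 10%, however, lay 5 epidermal genes and 1 neural gene. Among these epidermal genes were also krt94 (14.77 and 14.65) and krt4 (13.77 and 13.78). The tissue these signals came from, and their part in any level above, were not tested.

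Skeletal muscle genes had 26 of 31 present and a median of 7.06. Its top was held by acta1b (17.34 and 16.75), acta1a (16.38 and 16.29) and tnnc2.2 (16.16 and 16.23), an actin pair and a fast-type troponin C gene. The muscle-determining factors stood at the other end, with 5.17 and 5.29 for myod1, 5.32 and 5.21 for myf5, and myf6 not present. Neural crest and pigment genes had 19 of 27 present, a share of 70.4% beside 72.8% of all named genes, and a median of 7.29. They were led by snai1a (11.31 and 11.34). The crest factors tfap2a and sox10 had 9.15 and 9.07, and 8.04 and 8.02, the pigment cell genes mitfa and dct had 7.34 and 7.30, and 7.47 and 7.57, and foxd3 and crestin were not present. The endoderm and yolk list had 17 of 23 present, a share of 73.9% beside 72.8% of all named genes, and a median of 7.29. Its brightest gene, gata5, is also a heart factor, and next came the lipoprotein gene apoeb (12.75 and 12.60), while sox17 had 5.63 and 5.55. The short list of notochord and axis genes had 8 of 9 present and a median of 7.90.

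Genes typical of other organs, such as eye, pituitary, pancreas, liver and kidney, and of germ cells, gave the low end. Of these 53 genes, 28 were present, or 52.8%, with a median of 5.32. The pituitary hormones prl, gh1 and tshba and the photoreceptor gene gnat1 were not present. Other genes of the same organs were, with 8.20 and 8.28 for crx and 8.20 and 8.02 for gnat2, both of the eye. The pituitary gene pomca had 5.36 and 5.46. Being called present was thus a lenient call, since more than 50% of these genes passed it. The value that 90% of this list did not exceed was 7.80, or a raw signal of 223, and 7668 genes, 49.4% of all named genes, lay above it. This stricter limit was chosen after the data had been seen. Above it lay 29 of 37 endocardial genes, 38 of 51 cardiac factors and 31 of 34 neural genes. Skeletal muscle had 14 of 31 genes above it and blood 10 of 24, both below the 49.4% of all named genes. The brightest gene of the list, cpn1, had 11.27 and 11.25, and its second probe 4.17.

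Hox genes, which mark position along the body axis, had 25 of 45 present, or 55.6%, a median of 5.38 and none in the brightest 10%. The brightest was hoxb3a, with 9.48 and 9.65, followed by hoxb7a with 9.06 and 9.09. Of this list 7 genes lay above the stricter limit of 7.80. Posterior genes were found on both sides of the limit, with 6.83 and 6.86 for hoxc13a and 5.70 and 5.66 for hoxd10a, while hoxa13a, hoxc12a and hoxd13a were not present. The same held for anterior and middle genes, of which hoxb4a and hoxa5a were not present.

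Families of genes with a shared name were also counted over the whole array, without lists. Of 170 families with at least 12 genes, 19 were present in full and 28 had fewer than 50% present. Among those present in full were the splicing factors srsf (17 genes, median 14.04), the proteasome regulatory genes psmd (16 genes, median 13.38) and the translation initiation factors eif (58 genes, median 12.85). At the other end, 2 of 101 odorant receptor genes were present, with a family median of 4.17, and 1 of 27 trace amine receptor genes. These counts moved with the limit. Of the odorant receptor genes, 9 were present at 1.5 times the 5th percentile, 0 at 3 times, 5 on array 1 alone and 12 in the processed table. None of 18 immune receptor genes named nitr was present, and 1 of 16 serotonin receptor genes. These sensory and immune receptor families thus lay at the floor of the array.

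Both groups had been heat-shocked some hours before dissection, and heat shock genes were accordingly read as part of the baseline. Of 44 genes of this list, 40 were present, with a median of 12.97, and 23 lay in the brightest 10%. The constitutive chaperones hsp90ab1 (18.73 and 18.40) and hspa8 (17.81 and 17.84) are abundant in cells without heat shock as well. Their dimmest probes gave means of 11.43 and 11.13. The inducible genes hsp70l and hsp70.3 had 14.11 on both arrays, and 14.19 and 14.05. The small heat shock proteins hspb1 and hspb6 had 15.60 and 15.55, and 16.08 and 15.49. The second probe of hspb6 gave 4.17, below the limit. No array of embryos without heat shock was part of the set, so what the heat shock added to these levels was not tested. The lens crystallins cryaa and cryaba, which belong to the same protein family, were not present.

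Growth and energy genes were read next. Of the 500 brightest genes, 67 were in the ribosomal protein list and 41 in the respiratory chain list. Another 292 with a settled name were in no list. All 73 genes of the ribosomal protein list were present, with a median of 17.38, and 69 lay in the brightest 10%. With the dimmest probe of each gene, 63 of the 73 were present. Other genes of translation had 28 of 31 present and a median of 14.15, with eef2b at 18.46 on both arrays and eef1a1l1 at 18.09 and 18.07. The paralogues eef1a1a, eef1a1b and eef1a2 were not present.

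Of 88 genes of the respiratory chain and ATP synthase, 84 were present, with a median of 14.40, and 59 lay in the brightest 10%. Nuclear subunits such as cox4i1 (16.79 and 16.75) and atp5f1b (16.70 and 16.69) led the list. Genes of the mitochondrial genome, a set added after the data had been seen, were present for 6 of 6, with COX1 at 17.77 and 17.46. The citric acid cycle had 23 of 24 present and a median of 13.83, with cs, the first enzyme, at 15.69 and 15.72. The symbol dld in that list is the Notch ligand named above and not an enzyme. Oxidative genes were therefore bright as a set.

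Fatty acid oxidation had 22 of 25 present and a median of 11.30, led by etfb (14.79 and 14.84) and hadhb (14.58 on both arrays), while the muscle importer cpt1b and the uptake gene cd36 were not present. Glycolysis was uneven, with 26 of 33 present, or 78.8% beside 72.8% of all named genes. The list median was 8.89, yet 11 genes lay in the brightest 10%. For most steps at least 1 paralogue was bright, such as aldoab (16.71 and 16.69), eno3 (16.39 and 16.37), gapdh (15.72 and 15.73) and pgk1 (13.91 and 13.95). The phosphofructokinase genes were an exception, with pfkmb at 7.65 and 7.57, pfkpb at 6.77 and 6.82, and pfkma, pfkla and pfklb not present. The glucose uptake genes of the list were also low, with slc2a1b at 5.70 and 5.46 and slc2a1a not present. The proliferation list had 38 of 39 genes present and a median of 12.88, with 17 in the brightest 10%. It also holds inhibitors of the cell cycle. Of these, cdkn1ca (13.97 and 13.81) and cdkn1ba (13.38 and 13.48) were among the 17. The replication helicase gene mcm7 had 15.15 and 15.20, the mitotic kinase plk1 14.10 and 14.04, and the cyclin ccnb1 13.34 and 13.38, so genes of S phase and of mitosis were both bright, and the germ line cyclin ccna1 was not present.

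Many zebrafish genes exist as a pair of sister copies from the genome duplication of bony fish, marked a and b. Pairs were formed by symbol alone, from names that differ only in a final a or b. Some of them, such as sdha and sdhb, are therefore not sister copies. Of 1814 such symbol pairs on the array, both genes were present for 1059, or 58.4%. For 526, or 29.0%, 1 gene was present, and for 229, or 12.6%, neither was. The troponin, desmin and elongation factor genes above show what such unequal pairs look like.

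How firmly a gene was placed depended on its probes. Of 6087 genes with more than 1 probe, 3914 had all probes present, 1219 had only some present and 954 had none. The brightest and dimmest probe of such a gene differed by a median of 1.76 on the log2 scale, and 25% of genes differed by more than 3.66. The widest range was that of rps14, at 14.13. Genes with several probes were present in 84.3% of cases, against 65.3% of genes with 1 probe. Of the markers, myh7 and has2 rest on 1 probe, while the second probes of tnnt2a, myl7 and nkx2.5 gave 18.00, 16.82 and 13.72, all far above the limit.

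The 2 arrays ordered the genes in nearly the same way, with a Pearson correlation of 0.999 across the 11299 present genes, which are not independent replicates. Their median absolute difference was 0.0725 on the log2 scale. At least 1.5-fold apart were 152 genes, or 1.35%, of which 148 were higher on array 1 and 4 on array 2. Of these, 24 were at least 2-fold apart. The spread grew towards dim genes, with an SD of the difference of 0.107 in the brightest 20% of present genes and 0.202 in the dimmest 20%. The widest differences were those of the splicing factor gene bcas2, with 432 on array 1 and 116.5 on array 2 (3.71-fold), and the histone gene hist1h2a4, with 519 and 148 (3.51-fold). They were followed by srd5a1, gpr27, rangap1b, pla2g12b, ubxn10, btbd3b, kif18a and rbm24b. In the processed table bcas2 and hist1h2a4 were as far apart, with 386 and 92, and 649 and 176. The cyclin gene ccng1 behaved otherwise, with 41862 on array 1 and 90719 on array 2 in the raw table but 69200 and 69400 in the processed one.

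**Figure D3:**
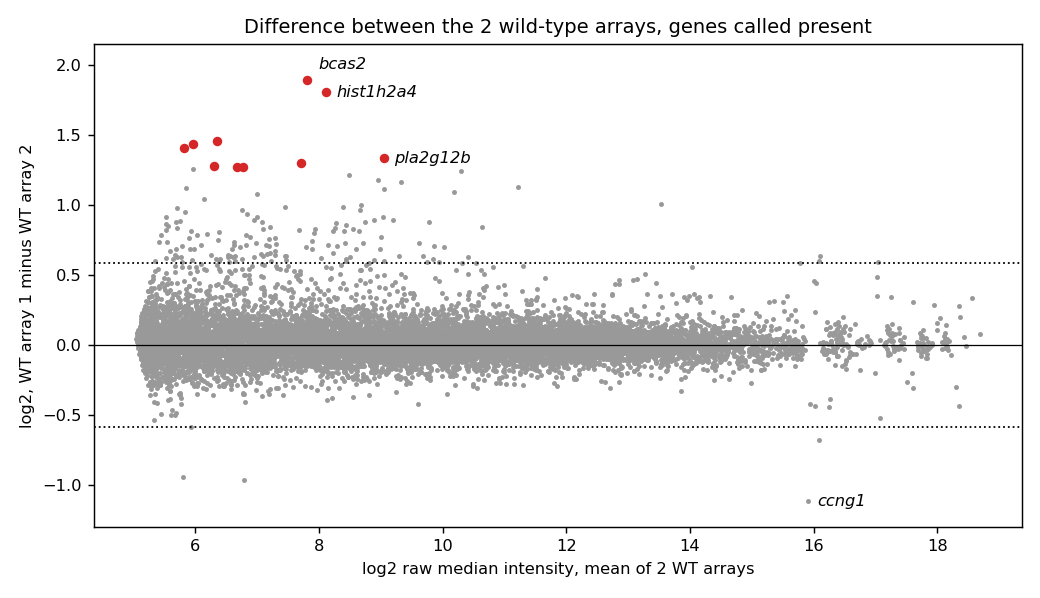
Difference in log2 raw signal, array 1 minus array 2 (vertical axis), against mean log2 raw signal (horizontal axis) for the present genes, with lines at 1.5-fold. The cloud is centred near 0 and widens towards dim genes, and 148 of the 152 genes beyond the lines lie above 0.

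At the limit itself, calls turn on small differences. Just inside it lay c1galt1la, with raw signals of 33.5 and 35, dennd4c with 33.5 on both arrays, and epg5 with 33.5 and 48.5. Just outside lay acd with 36 and 32, bltp3a with 37 and 32, and bricd5 with 33 and 35.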

How the data were processed

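Levels were read from single-colour Cy3 arrays. Per the file headers, 1 of the deposited tables holds the median raw intensity of each spot. The other holds the authors' processed intensities of those spots, and both are linear. The submitters' processing notes name Agilent Feature Extraction, without a version, and the background step behind the processed table is not given in the sources used here. No column flags saturated or dim spots, so saturation could not be checked.

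The spots of a probe were averaged and log2 was taken, without scaling between arrays. Of 43603 probes, 23667 had a symbol in the platform annotation, which can be old, and 19936 were unnamed. Those 23667 probes stand for 15528 genes. No test was made, since the 2 wild-type arrays form 1 group, and their small number limits the precision. The members and the gene lists were chosen with earlier results of these data known. Of the symbols in 33 lists, 146 were not found on the array and 16 were matched by synonym, and 5 wrong synonym matches were taken out. Another 2 lists, ribosomal proteins and the respiratory chain, were drawn up by symbol. Genes named in the text were the 5 markers, the brightest genes with a symbol that is not provisional, up to 5 bright members of each list and up to 5 well-known members that were not present, related members of a family, the neighbours of the limit and the 10 widest differences between arrays. Beyond this, ccng1, acta1b and the family counts were chosen after their values had been seen.

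Alternatives were other limits, at least 1 array above the limit, each array alone, the processed table, other rules for several probes, the median over spots, and normexp (offset 50) with quantile normalization. Python 3.11.15, pandas 2.3.3, numpy 2.4.6, matplotlib 3.10.9, R 4.3.3 and limma 3.58.1 were used, and the counting was tested on simulated data.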

Additional observations from a re-analysis of the deposited data

How the results depend on the processing

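The count of 11299 genes present ranged from 9721 to 12332 for limits of 4 and 1.5 times the 5th percentile, was 11717 with at least 1 array above the limit, and 11495 to 11531 with a single array. It was 12835 in the processed table, 11053 with the mean and 10081 with the dimmest probe of a gene. Counting probes in place of genes gave 24296. At the 90th percentile of the other organ list, a limit chosen after the data had been seen, it was 7668. Members present in the lists, 920 of 1070 on the array, ranged from 719 at that limit to 988 in the processed table, and from 929 to 930 with a single array. Of the 100 brightest genes, 97 were kept with either array alone, 92 with processed intensities, 70 with the mean over probes, 65 with the dimmest probe, and 100 with normexp and quantile normalization. That last setting was run over all 4 arrays. It keeps the order of spots within an array, so its overlap could hardly differ and shows little. The 2 odorant receptor genes present became 9 at 1.5 times the 5th percentile, 6 with at least 1 array, 5 without WT replicate 2, 12 in the processed table and 0 at 3 or 4 times the percentile. The 1 trace amine receptor gene became 2, 3 and 0 at 1.5 times the percentile, in the processed table and at 3 times. The Hox count of 25 became 15 and the other organ count of 28 became 16 at 4 times the percentile. With the dimmest probe these were 10 and 18, and the neural crest count of 19 became 12. The median over spots changed no count, since probes with several spots have no gene name. The count of 152 genes at least 1.5-fold apart was 127 after centring each array and 240 in the processed table. The cause of these shifts was not tested. No paired analysis was possible because the results come from no test and from 1 group. Protein length and promoter composition by rank, with their alternatives, were not run, since no sequences were at hand. Signal near the limit, spots without saturation flags and a single probe for 9441 genes limit what the ranking can show.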

Other observations

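Among the 100 brightest genes, 31 belonged to none of the lists. Of these, 16 had more than 1 probe, and for 8 of the 16 the dimmest probe lay at least 7 log2 units below the brightest. The deubiquitinase gene otud4 gave 18.13 with its brightest probe and 4.32 with its dimmest, and castor1, a sensor of arginine, gave 17.91 and 5.29. Such places in the ranking rest on 1 probe. The same held for listed genes such as rpl17, with 18.04 and 4.54, and tpt1, with 18.00 and 4.18.

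Of the 100 brightest probes of the array, 29 had no gene symbol. Over all unnamed probes 37.1% were present, against 71.4% of named probes. Genes with a provisional name, 1372 in number, were present in 54.1% of cases, against 74.6% of the other genes.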
